A study of Ovis aries with 6 samples.

Results

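The matrix metalloproteinases MMP2, MMP7, MMP13 and MMP14, 2 tissue inhibitors of metalloproteinases (TIMP1 and TIMP3) and 2 small proteoglycans (DCN, decorin, and BGN, biglycan) were followed in sheep skin. They were chosen by gene name: all non-control probes that carry a RefSeq mRNA accession of one of these 8 genes were kept, which gave 15 of the 15008 probes and 8 of the 476 genes that could be named. The MMPs had 9 of these probes, the TIMPs 3 and the proteoglycans 3. RNA came from skin taken at full thickness from Aohan fine wool sheep aged 12 months, by the same father. It was labelled with Cy3 on single-colour Agilent sheep arrays. The body side and the groin each had samples of 1 ram and 2 ewes, and the labels do not tie the ewes across sites. The 3 body side samples came from skin that bears wool and the 3 groin samples from skin without it. No sample was treated and no genotype was given.

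The title of the series asks which genes go with the growth phase of wool. Metalloproteinases are zinc enzymes that are made as inactive precursors and cut collagens and other matrix proteins once activated. TIMPs block them by binding to the active site. Decorin and biglycan are leucine-rich proteoglycans that sit on collagen fibrils and bind growth factors such as TGF-beta, and decorin is among the abundant proteoglycans of the dermis. In skin these proteins take part in turnover of the dermis and in the rebuilding of tissue around the growing follicle.

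The sites differed in more than wool. The 3 groin arrays were read in 1 scan and the 3 body side arrays in another, so an effect of the scan and one of the site cannot be told apart here. Groin arrays were brighter, with a 75th percentile of 3677, 4171 and 4401 in processed signal, against 1103, 2048 and 1131 for the body side. A level below is therefore the log2 processed signal minus the log2 75th percentile of that array, and a difference is body side minus groin on that log2 scale. "Rose" and "fell" mean higher and lower on the body side at a limma adjusted p (Benjamini-Hochberg over all tested probes) under 0.05. Wool fibre and inner root sheath genes, which define the wool follicle, rose in 8 of 8 tested cases, and their summed linear signal was 72.5 to 88.3 times the 75th percentile in the groin and 589 to 1020 times on the body side. None of the 8 listed fibroblast markers and none of the 8 listed keratinocyte markers other than these had a named probe, so those cell types could not be checked. Of 5 tested macrophage and monocyte markers 1 rose and 1 fell, with sums of 1.81 to 2.10 in the groin and 1.49 to 1.87 on the body side, and both tested endothelial selectins fell (0.312 to 0.371 against 0.145 to 0.168). Of 4 muscle markers 2 rose and 1 fell (26.7 to 31.1 against 21.4 to 33.4), and of 3 adipocyte markers 1 rose and 1 fell (6.16 to 7.83 against 6.64 to 11.6). The part of these cell types in the differences below was not tested. In whole skin, fewer cells of a type and less RNA per cell cannot be told apart.

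Of the 8 genes, judged by the brightest probe of each, 3 rose (TIMP1, MMP13 and DCN), 4 fell (MMP2, BGN, TIMP3 and MMP7), and MMP14 did not pass. Among all named genes tested, 71% passed, with 45.5% higher and 25.6% lower. By probe, 14 of the 15 were tested, 4 rose and 6 fell. Of the 14, 10 were well above background on all 6 arrays, and 4 (2 of MMP2 and 2 of MMP14) passed that filter through the groin arrays alone. The other 4 did not pass, and 69.9% of all 13280 tested probes did (37% higher and 32.8% lower). In 12 of the 14 probes body side and groin did not overlap, against 75.2% of all tested probes. The median difference was -0.25 over the 14 probes and 0.10 over all tested probes. The member count thus lay near the background, and the genes differed in direction. In this 75th percentile fit the largest differences were a fall of MMP2 and a rise of TIMP1. With median centring the split was 6 higher and 3 lower probes and with normexp background correction 6 and 6. The same 2 settings moved the median of all tested probes to 0.56 and 0.46, and the split over all probes from 4918 higher and 4362 lower to 6607 and 3032 with median centring and to 6534 and 2983 with normexp.

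**Figure D1:**
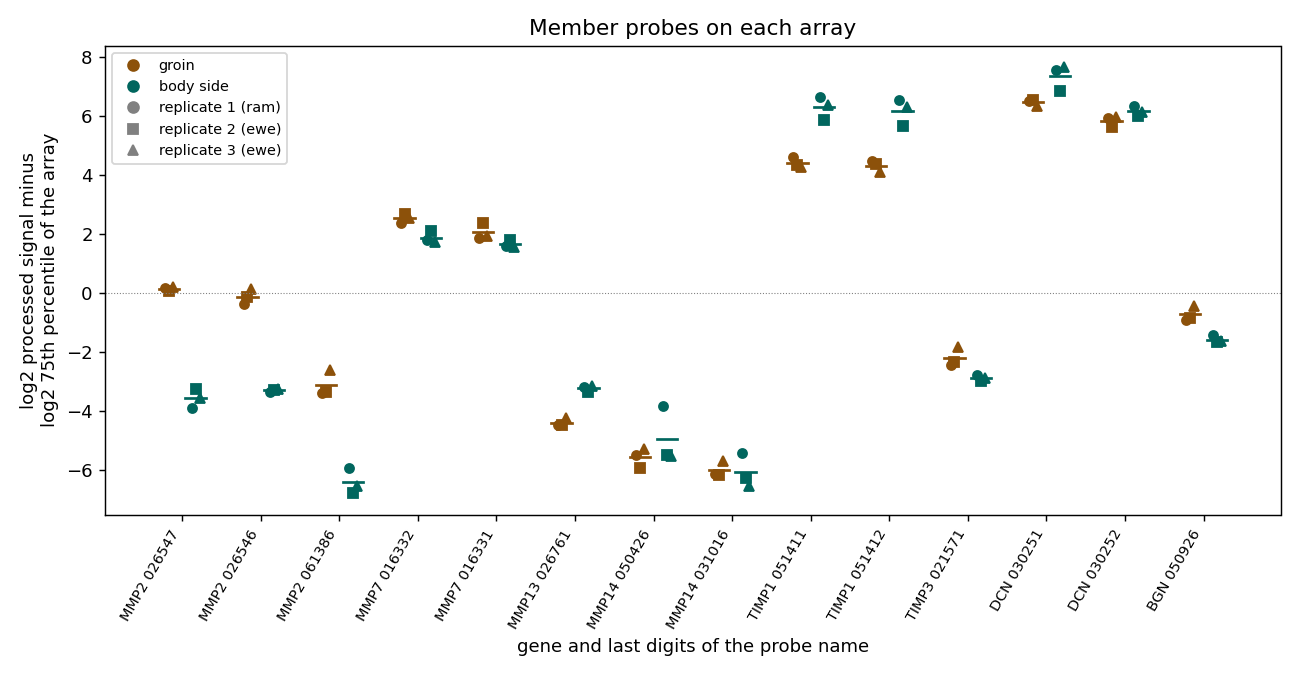
Level of each of the 14 tested member probes on every array (log2 processed signal minus the log2 75th percentile of the array, y axis), groin in brown and body side in green, with 1 symbol per replicate number and a bar for the mean of 3 arrays. The MMP2 probes sit lower on all 3 body side arrays, the TIMP1 probes sit higher on all 3 body side arrays, and the groups overlap for both MMP14 probes.

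MMP2, the gelatinase that cuts denatured and basement membrane collagen, showed the largest change. The processed signal of its brightest probe, A_70_P026547, was 4135, 4306 and 5096 on groin arrays 1 to 3 and 73.8, 216 and 96.1 on body side arrays 1 to 3. Every body side value lay below every groin value before scaling, but the body side arrays were dimmer as a whole, which also lowers such values. On 1 of the 3 body side arrays the spot was not read well above background. The level was 0.14 ± 0.086 in the groin and -3.57 ± 0.33 on the body side (SD, n = 3 each). MMP2 thus fell by 3.71 ± 0.20 SE, which is 13.1-fold (limma adjusted p = 8.91e-06), and ranked 148 from the bottom among the 13280 differences. The second probe, A_70_P026546, was read well above background on all 6 arrays and fell by 3.17 ± 0.18, from levels of -0.36, -0.15 and 0.12 in the groin to -3.36, -3.29 and -3.25 on the body side. A_70_P061386 fell by 3.31 ± 0.29, but it passed the background mark on 1 body side array and so entered the test through the groin, where it is high. A_70_P026547 also entered through the groin. The filter that asks for all 6 arrays kept A_70_P026546 alone of the MMP2 probes. The calls held in all 19 alternatives for A_70_P026546 and in the 18 that tested them for each of the others. The difference of the dim probe was smallest with normexp, at -1.20, and that setting gave -2.98 and -2.54 for the others. MMP2 was the 1 member gene whose fall exceeded 1 log2 unit with each scaling run.

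MMP7 (matrilysin), a small metalloproteinase known mainly from epithelia and glands, was bright at both sites. Its probe A_70_P016332 had levels of 2.37, 2.69 and 2.55 in the groin and 1.78, 2.11 and 1.74 on the body side. The groups did not overlap, and MMP7 fell by 0.66 ± 0.18 SE (1.58-fold, limma adjusted p = 0.0107). The call ended with median centring (-0.21), without groin replicate 2 (-0.59, adjusted p = 0.0512) and without replicate 3 at both sites (-0.59), in a range of adjusted p over all alternatives from 4.34e-04 to 0.324. The second probe, A_70_P016331, had levels of 1.88, 2.38 and 1.94 against 1.59, 1.81 and 1.55, again with no overlap, but its difference of -0.42 ± 0.19 did not pass (adjusted p = 0.0803; 95% interval -0.86 to 0.02). Quantile normalization gave -1.41 and -1.07 for these probes and cyclic loess -1.41 and -1.09, all past the threshold. So the size of the MMP7 difference depended on the scaling. It ran from -0.21 with median centring to -2.24 without scaling for A_70_P016332. For A_70_P016331 it was 0.03 with median centring, so not lower, and -2 without scaling.

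MMP13, the collagenase that cuts fibrillar collagen, moved the other way. Its single probe, A_70_P026761, had processed signals of 164, 186 and 230 in the groin and 121, 198 and 126 on the body side, so the raw values overlapped. Relative to the array the levels were -4.49, -4.49 and -4.26 against -3.19, -3.37 and -3.17, with every body side array above every groin array. MMP13 rose by 1.17 ± 0.16 SE (2.25-fold, limma adjusted p = 3.99e-04). The rise was 1.35 to 1.63 with normexp, quantile normalization, median centring and cyclic loess. It was lost only where no scaling was used (-0.40, adjusted p = 0.262). MMP7 and MMP13 lie in 1 cluster of metalloproteinase genes with 6 protein-coding genes between them in the sheep assembly ARS-UI_Ramb_v3.0. They differed in direction, and no metalloproteinase between them was matched to a probe here.

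MMP14, the membrane-anchored metalloproteinase that activates the MMP2 precursor on the cell surface, had 3 dim probes and no call. A_70_P050426 had levels of -5.51, -5.94 and -5.29 in the groin and -3.83, -5.50 and -5.53 on the body side, where body side replicate 1 (the ram) stood above the rest. Its difference of 0.63 ± 0.44 SE did not pass (limma adjusted p = 0.229; 95% interval -0.38 to 1.63). Without body side replicate 1 the difference was 0.07, and it was called with normexp, at 1.12 (adjusted p = 0.00953, the lowest in a range up to 0.808), and with median centring, at 1.08 (adjusted p = 0.0499). A_70_P031016, well above background on 1 body side array, differed by -0.08 ± 0.30 (adjusted p = 0.827; interval -0.76 to 0.60), and it was called higher with normexp (1.06) and lower without scaling (-1.65). The third probe, A_70_P050291, passed the background mark on 1 groin array and none from the body side and was not tested. MMP14 therefore had no direction that held across settings, and these intervals leave room for a change of over 1 log2 unit in the first probe.

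TIMP1, a secreted inhibitor of most metalloproteinases, was the member that rose most. Probe A_70_P051411 had processed signals of 90239, 84579 and 84923 in the groin and 109795, 120550 and 93422 on the body side. These raw values were higher on all 3 body side arrays. Without scaling, the median difference of all tested probes was -1.47. It was -0.44 in the brightest of 10 equal bins of probes, which holds both TIMP1 probes. The levels were 4.41 ± 0.18 in the groin and 6.29 ± 0.38 on the body side (SD, n = 3 each). TIMP1 rose by 1.89 ± 0.23 SE (3.69-fold, limma adjusted p = 2e-04). The second probe, A_70_P051412, rose by 1.86 ± 0.25, from 4.48, 4.36 and 4.09 to 6.55, 5.65 and 6.32. The log2 ratio of the probes differed by 0.02 between the sites, less than its SD of 0.10 over the groin arrays. The rise shrank to 0.52 and 0.53 with quantile normalization and to 0.49 for both with cyclic loess, all still past the threshold, and to 0.31 and 0.29 without scaling, where neither passed (adjusted p = 0.32 and 0.348). In the same assembly the TIMP1 gene overlaps SYN1, ZNF81 and ARAF, and TIMP3 overlaps SYN3, and the strand that a probe reads was not checked. On both TIMP1 probes and at both sites the ram had a higher level than either ewe, and with 1 ram this was not tested. This order did not hold throughout in processed signal. In the groin A_70_P051412 was at 82179 in the ram and at 85536 in the ewe of replicate 2.

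TIMP3, the inhibitor that stays bound to the matrix and also blocks several ADAM proteases, had 1 probe, A_70_P021571. Its levels were -2.43, -2.33 and -1.82 in the groin and -2.78, -2.99 and -2.88 on the body side, without overlap. TIMP3 fell by 0.69 ± 0.20 SE (1.62-fold, limma adjusted p = 0.0147). This call ended in 8 of 19 alternatives, among them normexp (-0.36), quantile normalization (-0.25), median centring (-0.24) and cyclic loess (-0.32). It also ended without groin replicate 3 (-0.51), without replicate 2 at both sites (-0.71) and without replicate 3 at both sites (-0.51). Adjusted p over all alternatives ran from 2.11e-04 to 0.286. Both inhibitors kept their direction in all 19 alternatives. TIMP1 was called in 18 of them on each probe and TIMP3 in 11.

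DCN and BGN, which are close relatives in structure, differed in direction in the 75th percentile fit, but not with every scaling. DCN was among the brightest probes of the array. A_70_P030251 had processed signals of 335018, 389248 and 361635 in the groin and 211000, 236187 and 229088 on the body side, lower on every body side array. Relative to the 75th percentile the order was the opposite, with levels of 6.51, 6.54 and 6.36 against 7.58, 6.85 and 7.66. DCN rose by 0.89 ± 0.24 SE in that fit (1.86-fold, limma adjusted p = 0.00923), but was lower with quantile normalization (-0.36), cyclic loess (-0.81) and the deposited values (-0.37). The call also ended without replicate 3 at both sites (0.69, adjusted p = 0.114). The other probe, A_70_P030252, was at 0.32 ± 0.18 and did not pass (adjusted p = 0.145; 95% interval -0.09 to 0.73), and it was called higher with median centring (0.77) and lower with quantile normalization (-1.04), cyclic loess (-1.21), the deposited values (-1.00) and no scaling (-1.26). No direction can be given for DCN from these arrays.

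BGN had 1 probe, A_70_P050926, with levels of -0.91, -0.84 and -0.44 in the groin and -1.44, -1.68 and -1.64 on the body side. Every body side array was below every groin array. BGN fell by 0.86 ± 0.19 SE (1.81-fold, limma adjusted p = 0.00348). It stayed lower in all 19 alternatives, at -0.72 with normexp, -0.56 with quantile normalization and -0.63 with cyclic loess. The call ended with median centring (-0.40, adjusted p = 0.0696) and without replicate 3 at both sites (-0.69, adjusted p = 0.0695), in a range from 1.19e-04 to 0.0696.

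**Figure D2:**
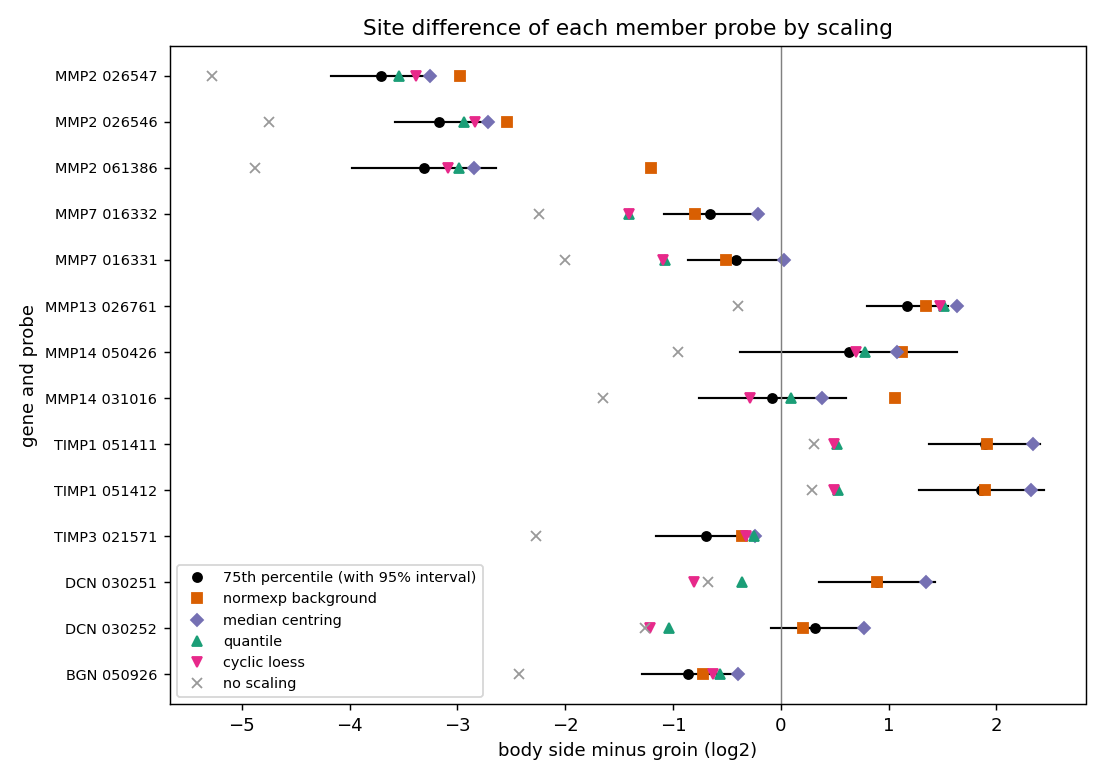
Body side minus groin difference (log2, x axis) of each tested member probe, with the 75th percentile scaling as a black point and its 95% interval, and 5 other settings as coloured symbols. The MMP2 probes stay below 0 and the TIMP1 probes above 0 in all 6 settings, whereas the symbols of both DCN probes lie on both sides of 0.

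The site difference of all probes moved with their brightness, which bears on the members at both ends. In 10 equal bins of tested probes ordered by mean level, the median difference was 1.14 in the brightest bin, which holds both TIMP1 and both DCN probes, and -0.42 in bin 5, which holds TIMP3. TIMP1 lay above the median of its bin and DCN below it. Bin 9, which holds both MMP7 probes, had a median of 0.68, against differences of -0.66 and -0.42 for MMP7. MMP13, in bin 3 with a median of -0.11, lay above it. Feature Extraction took all spots of TIMP1 and DCN from a second, less sensitive scan on all 6 arrays, and those of MMP7 on 2 groin arrays for one probe and 1 for the other, but on no body side array. No member spot was saturated. The part of brightness or of the second scan in these differences was not tested apart from the scaling alternatives given.

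**Figure D3:**
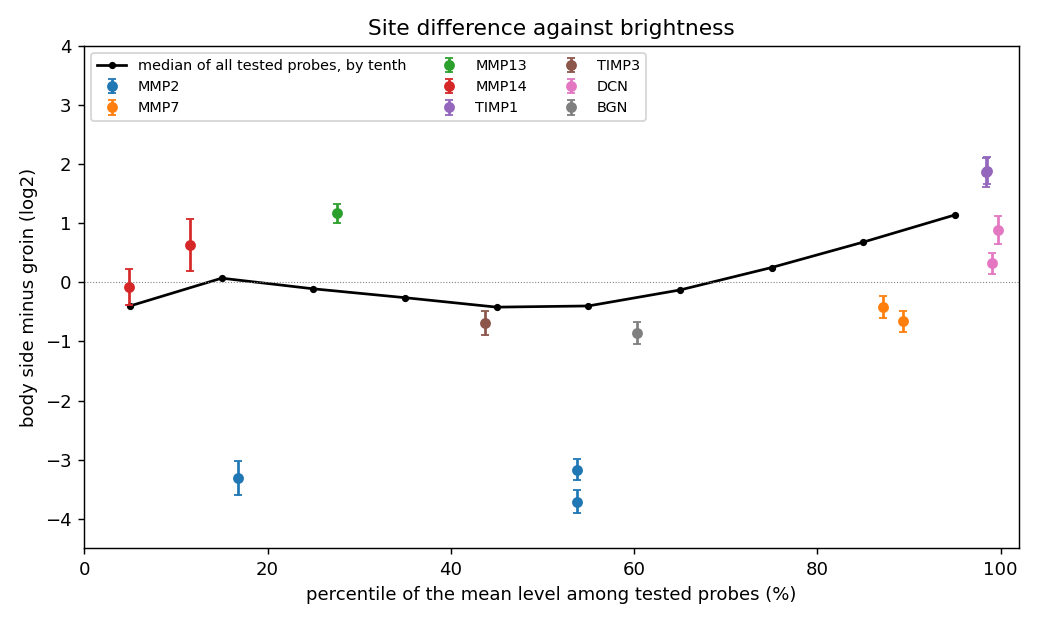
Body side minus groin difference (log2, y axis; bars are SE of the limma fit) of each tested member probe against the percentile of its mean level among all 13280 tested probes, with the median of all tested probes in each of 10 equal bins as a black line. The line climbs to 1.14 at the bright end, where TIMP1 lies above it and DCN below, and the MMP2 points lie more than 2 log2 units under it at -3.17 to -3.71.

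Ratios between members on the same array need no scaling factor, though a trend with brightness can still move them. For each enzyme over each inhibitor and for DCN over BGN, 9 ratios of brightest probes were compared, together with 7 ratios between probes of one gene. The brightest probes of MMP2 and of MMP14 passed the background filter through the groin arrays alone, which limits their ratios. MMP2 over TIMP1 differed most. Its log2 ratio was -4.45, -4.30 and -4.06 on the groin arrays and -10.54, -9.12 and -9.93 on the body side arrays. The difference of -5.60 is a 48.4-fold lower ratio on the body side, and it was -4.89 with normexp, -4.07 with quantile normalization and -3.87 with cyclic loess. MMP7 over TIMP1 differed by -2.55, and by -1.94 and -1.89 with the latter 2 settings. MMP14 over TIMP1 differed by -1.26 and MMP13 over TIMP1 by -0.71 in processed signal, but both turned with quantile normalization (0.26 and 0.99) and cyclic loess (0.22 and 0.99), so these ratios have no direction that holds. Relative to TIMP3 the enzymes split: MMP2 was lower (-3.02) and MMP13 (1.87) and MMP14 (1.32) were higher, and these directions were the same with normexp, quantile normalization and cyclic loess. MMP7 over TIMP3 overlapped (0.03) and was at -1.16 with quantile normalization. DCN over BGN was 7.42, 7.38 and 6.80 in the groin and 9.02, 8.53 and 9.31 on the body side. This 3.37-fold higher ratio (1.75 on the log2 scale) shrank to 0.20 with quantile normalization and turned to -0.18 with cyclic loess. In an exact permutation test (two-sided) the 8 of these 9 ratios that did not overlap had p = 0.1, the smallest that 3 against 3 arrays allow, with an adjusted p of 0.145 over all 16 ratios, and MMP7 over TIMP3 had p = 0.9. A threshold of 0.05 could not be reached in this design.

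**Figure D4:**
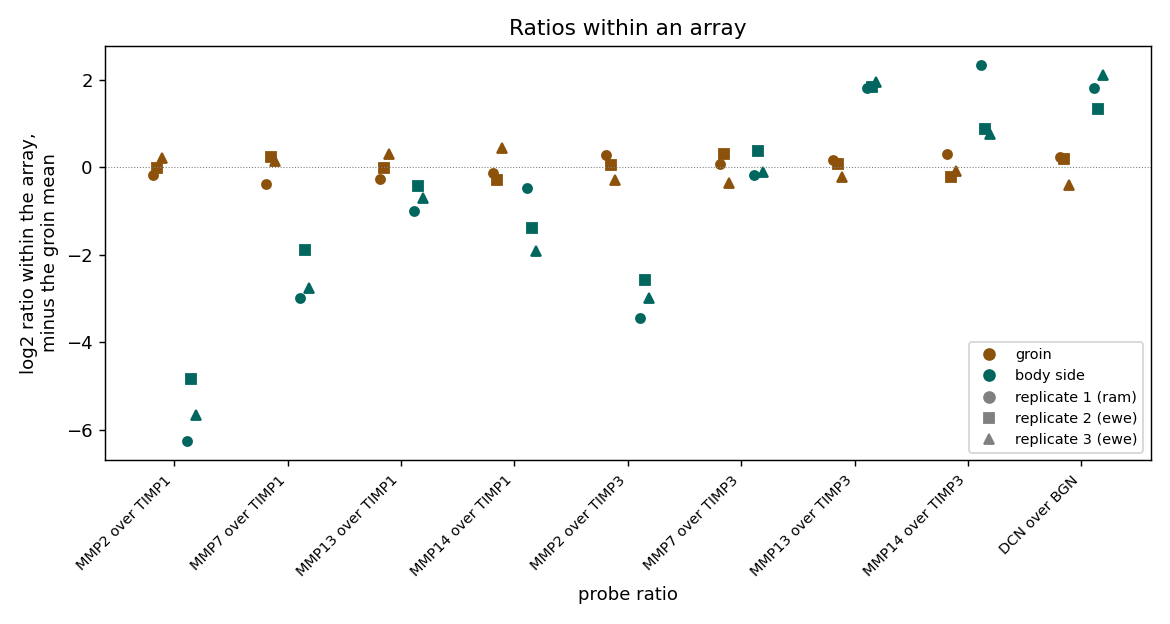
Log2 ratio of brightest probes within each array, minus the mean of the groin arrays for that ratio (y axis), for the 4 metalloproteinases over TIMP1 and TIMP3 and for DCN over BGN, with groin in brown, body side in green and 1 symbol per replicate number. In processed signal all body side points of the 4 ratios over TIMP1 lie below the groin points and those of DCN over BGN above them. With cyclic loess, not drawn here, MMP13 over TIMP1 (0.99), MMP14 over TIMP1 (0.22) and DCN over BGN (-0.18) turned. The MMP2 and MMP14 probes drawn passed the background filter through the groin arrays alone.

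Probes of one gene could also disagree. The ratio of the MMP2 probes A_70_P026547 and A_70_P026546 was 0.53, 0.19 and 0.09 in the groin and -0.54, 0.04 and -0.30 on the body side, a difference of -0.54 without overlap, and both still fell. For DCN the ratio of the brighter to the dimmer probe was higher by 0.58 on the body side with overlapping groups (exact permutation test, p = 0.2). For MMP14 it was higher by 0.70 without overlap, but by 0.06 with normexp.

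The site difference was also taken in the ram and in the ewes apart. The MMP2 probe A_70_P026547 differed by -4.07 in the ram and -3.53 in the ewes. The other MMP2 probes went the other way, A_70_P026546 at -3 and -3.26 and A_70_P061386 at -2.54 and -3.69. Of the MMP2 probes only A_70_P026546 was read well above background on the body side array of the ram. TIMP1 differed by 2.02 in the ram and 1.82 in the ewes (A_70_P051411), and MMP13 by 1.30 and 1.11. BGN and TIMP1 are X-linked genes, and BGN differed by -0.53 in the ram and -1.02 in the ewes. The widest gap was that of MMP14 (A_70_P050426), at 1.68 in the ram and 0.10 in the ewes. None of the 14 member probes passed the limma interaction test of site and sex (lowest adjusted p = 0.287), and 3 had an unadjusted p under 0.05: both MMP14 probes and the dim MMP2 probe. Over all probes 14 of 13210 passed, or 0.106%. With 1 ram per site, a p that misses the threshold does not show that the sexes act alike.

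Few other matrix genes could be named. Of 178 other matrix, protease and regulator genes listed, 16 had a tested probe, of which 3 rose, 8 fell and 5 did not pass, with a median difference of -0.66. Over all named genes tested 71% passed, with 45.5% higher and 25.6% lower. No other MMP, ADAM or ADAMTS protease, proteoglycan or collagen was among them. The plasmin system, whose proteases can activate metalloproteinase precursors, was represented by PLAU, the urokinase, which fell 2.14-fold (not past the threshold with normexp, at -0.29), and by its receptor PLAUR, which fell by 1.00 ± 0.29 (not past it in 6 of 18 alternatives: quantile normalization at -0.57, median centring at -0.55, cyclic loess at -0.65, the deposited values at -0.58, without groin replicate 3 at -0.92 and without replicate 3 at both sites at -1.02). PLAUR was well above background on 2 of the 3 body side arrays and so passed the filter through the groin, where it is high. Among protease inhibitors, SERPINA1, the inhibitor of neutrophil elastase, rose by 0.74 ± 0.19 but was at -0.18 with quantile normalization, -0.16 with cyclic loess and -0.83 without scaling, and its call ended without replicate 3 at both sites (0.70). Its spot was taken from the second, less sensitive scan on all 3 groin arrays and on no body side array. The part of that scan in the SERPINA1 difference was not tested. SLPI, another protease inhibitor, did not pass.

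Among the matrix receptors, ITGB1, the beta chain shared by most collagen and fibronectin receptors, fell by 3.32 ± 0.24 SE (limma adjusted p = 2.35e-05). It was lower by 2.87 or more in all alternatives run. ITGAV and HYAL2 of the same list did not pass. SPP1 (osteopontin), the 1 tested matrix glycoprotein, was at 0.19 ± 0.20 and did not pass, but it was called at 1.13 with normexp and at -1.39 without scaling. Of 7 growth factors, cytokines and regulators of these genes, 2 rose, 4 fell and 1 did not pass. FOS, a part of the AP-1 factor that drives several metalloproteinase promoters, was lower by 2.89 ± 0.34, but it passed the filter through the groin (1 body side array was above the background mark), and its difference was -1.15 with normexp. Of 3 cytokines that induce metalloproteinases in fibroblasts, IL1A fell by 2.11 ± 0.23, whereas IL1B rose by 1.25 ± 0.25 and TNF by 1.60 ± 0.18. Without scaling IL1B was at -0.32 and TNF at 0.03, and neither passed. TGFB1, which raises TIMP1 and matrix genes in fibroblasts, fell 2.12-fold (at -0.63 with median centring), and the call held in every alternative run. No body side array read PDGFB well above background. Its groin level was higher by at least 2.35-fold with the 75th percentile scaling, as the mean groin level against the higher of its own level and the lowest level well above background on each body side array (measured means -4.83 and -7.71), but with normexp its difference was -0.02.

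By pattern over the 6 arrays, measured as the root mean square difference of gene-centred levels, the nearest of 434 other named genes to MMP2 were ACLY (0.23) and ITGB1 (0.25), which differed by -3.56 and -3.32. Both were also the nearest with quantile normalization. MET (0.06) and BMPR1B (0.09) lay nearest to TIMP1, and IL2 (0.05) and BSP5 (0.08) to MMP13. For MMP14 they were F2 (0.28) and NOG (0.32), for MMP7 SHMT1 (0.08), and for DCN RPS26 (0.10) and CYP3A24 (0.11). TIMP3 and BGN shared theirs, CDK5 and PHKG2, at 0.13 for both with TIMP3 and at 0.11 and 0.08 with BGN. With quantile normalization the pairs of MMP2 and MMP14 stayed, BGN kept 1 of 2, and those of the other 5 genes were replaced.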

How the data were processed

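The members and gene lists were chosen with earlier results of these data known. The submitters' processing notes name Agilent Feature Extraction 10.5.1.1 as the tool behind each intensity, which subtracts background and, per the file headers, takes bright spots from a second scan at lower sensitivity scaled to the first. The deposited log2 table was used as an alternative only, and its normalization between arrays is not given in the sources used here. From the processed intensity in the deposited scanner files, control spots and outlier spots (6 to 51 per array) were left out and 50 probes with 5 spots each were averaged. The log2 signal minus each array's 75th percentile was fitted with limma 3.58.1 in R 4.3.3 (lmFit, eBayes, Benjamini-Hochberg). Probes well above background on all 3 arrays of a site were tested, which left 13280 of 15008, and 734 probes had a gene name through their accession. The fit was tested on simulated data. Of each list, up to 3 called genes with the largest difference were named or, with none called, the one with the smallest p, and 2 nearest genes per member. Some genes that this rule names are not reported here. SLPI, ITGAV, HYAL2, IL1B, TNF and TGFB1 were added to them after their values were seen.

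The other settings tried were normexp (offset 50, on median signals, since no mean signal was used here), quantile normalization, median centring, cyclic loess, no scaling, the deposited values, other filters on dim probes, a robust variance trend, a replicate block and leaving out arrays. The alternatives for the pathway genes and the nearest genes, and quantile normalization and cyclic loess for the ratios, were added after seeing the data. The replicates are separate animals at each site. Number 1 is the ram at both sites, but the labels do not tie ewes 2 and 3 across sites. The number of arrays limits the precision. No sequence or coordinate is printed, since the files name no genome build.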

Additional observations from a re-analysis of the deposited data

How the results depend on the processing

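The MMP2 probes kept their direction and call in every alternative that tested them (the filter on all 6 arrays left A_70_P026546 alone), and TIMP1 lost its call only without scaling. Without scaling, where the 75th percentiles of the arrays differ between sites, 0 member probes were higher in limma (0 also at an unadjusted p under 0.05) and 10 lower, against 190 and 9413 of all probes and 0 and 13 of the listed matrix genes (0 higher at unadjusted p). Values that turned there were MMP13 (-0.40), MMP14 A_70_P050426 (-0.95), DCN (-0.68 and -1.26), SERPINA1 (-0.83), SPP1 (-1.39) and IL1B (-0.32). Median centring gave 3 lower member probes, with MMP7 A_70_P016331 at 0.03 and MMP14 A_70_P031016 at 0.38. DCN turned with quantile normalization (-0.36 and -1.04), cyclic loess (-0.81 and -1.21) and the deposited values (-0.37 and -1.00). Quantile normalization and cyclic loess turned MMP13 over TIMP1 (0.99 and 0.99), MMP14 over TIMP1 (0.26 and 0.22), MMP7 over TIMP3 (-1.16 and -1.08) and TIMP1 A_70_P051411 over A_70_P051412 (-0.01 and 0), and cyclic loess turned DCN over BGN (-0.18). SERPINA1 turned with the same 3 settings as DCN (-0.18, -0.16 and -0.18). MMP14 A_70_P031016 turned with normexp (1.06), quantile normalization (0.09) and the deposited values (0.08). Normexp called 6 listed matrix genes higher and 5 lower, turned MMP7 over TIMP3 (-0.44) and MMP2 A_70_P026546 over A_70_P061386 (-1.34), and called 0 of all probes in the test of ram against ewes (394 at an unadjusted p under 0.05; 14 were called by limma in the 75th percentile fit). The filter on all 6 arrays left 4 lower listed genes. Apart from the filters, which change the probes tested, and the scalings, the cause was not tested.

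Leaving out arrays gave 3 to 6 lower member probes (3 without replicate 3 at both sites, which leaves 2 arrays a site) and 3 to 4 higher. Ranges that crossed 0 were those of MMP14 A_70_P031016 (-0.47 to 0.30), MMP7 over TIMP3 (-0.15 to 0.18), MMP2 A_70_P026547 over A_70_P061386 (-0.75 to 0.02), MMP2 A_70_P026546 over A_70_P061386 (-0.05 to 0.42) and TIMP1 A_70_P051411 over A_70_P051412 (-0.04 to 0.06). Deviations of same-numbered arrays from their site means had correlations of 0.159, 0.089 and -0.088, which cannot show whether the animals were the same. The numbers were not taken as a pairing because the labels do not tie the ewes across sites. With the replicate block 4 member probes were higher and 6 lower, as without it, and 4869 and 4343 of all probes. Signal over background limits MMP14, the dim MMP2 probe, FOS, PLAUR, SPP1 and PDGFB.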
